A study of Mus musculus with 5 samples.

Results

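The genes of the BMP and TGF-beta pathways were compared between marrow stromal cells of perichondrial and of cartilage origin. The members were a list of 50 mouse genes, read by symbol and grouped as 15 ligands, 5 genes of ligand processing and latency, 11 receptors, 8 Smads, 6 antagonists and 5 target genes. Of these, 49 had a row among the 30046 features counted, and the receptor gene Bmpr1b was not analysed here. Bulk RNA-seq was made of cells that were high in Cxcl12-GFP and carried tdTomato, in 5 libraries. The cells were sorted by flow cytometry from femurs at postnatal day 21 after tamoxifen at embryonic day 12.5. The 3 Dlx5CE-E12.5 libraries came from mice carrying Dlx5(CreER/+), whose Cre was active in fetal perichondrial cells. The 2 Fgfr3CE-E12.5 libraries, numbered 2 and 3 by the labels, came from mice carrying Fgfr3-iCreER, whose Cre was active in fetal chondrocytes. All mice carried Cxcl12(GFP/+), in which GFP takes the place of 1 Cxcl12 allele, together with the R26R(tdTomato/+) reporter. The sorted cells are called CXCL12-abundant reticular (CAR) cells by the labels, and cells of several mice were pooled.

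BMPs, TGF-betas, growth and differentiation factors and activins are secreted dimers that bring type I and type II serine/threonine kinase receptors together. In the textbook scheme, BMP-type receptors phosphorylate Smad1, Smad5 and Smad9, TGF-beta and activin-type receptors phosphorylate Smad2 and Smad3, and both groups move to the nucleus with Smad4. Antagonists such as noggin hold ligands outside the cell, latent TGF-beta binding proteins keep TGF-beta in the matrix, and the inhibitory Smads, Smad6 and Smad7, act inside it. In bone, BMPs are best known for inducing cartilage and bone, and TGF-beta is stored in the matrix and released when bone is resorbed.

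Promoters are shown for the members with the largest fold in either direction among the ligands (Tgfb1 and Bmp4) and the largest fold among the Smads (Smad6) and the targets (Id4), so that the letters upstream of the genes that the results turn on can be read. Each is the 250 bases before the RefSeq gene start, 5′ to 3′ on the gene's strand of GRCm38.p6. Capitals mark GGCGCC, a motif described for BMP Smads that reads the same on both strands, or CAGAC and its complement GTCTG, a motif described for TGF-beta Smads.
Id4, chr13:48260866-48261115, plus strand: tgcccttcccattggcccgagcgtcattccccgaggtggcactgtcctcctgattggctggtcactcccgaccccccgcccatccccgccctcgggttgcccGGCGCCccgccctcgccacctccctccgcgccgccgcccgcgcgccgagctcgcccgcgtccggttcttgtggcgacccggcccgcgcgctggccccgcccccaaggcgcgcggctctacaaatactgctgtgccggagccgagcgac
Smad6, chr9:64022060-64022309, minus strand: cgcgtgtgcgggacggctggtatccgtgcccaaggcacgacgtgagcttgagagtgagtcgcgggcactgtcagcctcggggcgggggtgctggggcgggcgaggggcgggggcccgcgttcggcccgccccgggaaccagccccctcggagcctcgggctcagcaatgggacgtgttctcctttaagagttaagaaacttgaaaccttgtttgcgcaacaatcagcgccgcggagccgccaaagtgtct
Tgfb1, chr7:25686752-25687001, plus strand: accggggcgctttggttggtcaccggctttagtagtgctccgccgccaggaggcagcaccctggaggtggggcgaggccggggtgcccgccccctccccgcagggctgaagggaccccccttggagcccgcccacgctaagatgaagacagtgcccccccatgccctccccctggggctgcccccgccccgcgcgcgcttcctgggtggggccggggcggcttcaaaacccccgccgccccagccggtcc
Bmp4, chr14:46390670-46390919, minus strand: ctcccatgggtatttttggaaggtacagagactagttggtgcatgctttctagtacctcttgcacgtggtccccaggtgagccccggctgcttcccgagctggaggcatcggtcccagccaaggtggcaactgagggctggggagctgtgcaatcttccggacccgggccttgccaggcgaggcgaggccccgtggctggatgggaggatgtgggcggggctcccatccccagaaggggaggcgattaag
Among these 4 windows, Id4 held 1 GGCGCC and no window held CAGAC or GTCTG. Of all 32851 RefSeq promoter windows of this length, 9.59% held GGCGCC and 42.2% held CAGAC or GTCTG. A window was available for 32 members, of which 10 held GGCGCC and 14 held CAGAC or GTCTG, and the other members had none. GGCGCC consists of G and C only, and the GC content of the 32 was not compared with that of all windows. Enrichment of either motif was not tested. The 4 windows had a GC content of 63.2% to 75.6%, beside a median of 52.4% over all promoter windows.

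Levels are given as CPM, the count of a gene scaled to a common library size after TMM normalization, in the order of the replicate numbers. A gene was said to rise or fall, in Fgfr3CE-E12.5 relative to Dlx5CE-E12.5 cells, where the edgeR adjusted p was under 0.05 and the absolute log2 fold change above 1. Of the 49 members, 41 reached 10 CPM in 2 or more libraries and were tested among 10093 genes. Another 6 (Gdf5, Inhbb, Ltbp4, Acvr2b, Smad9 and Chrd) were tested at the lower level of 1 CPM among 13235 genes, and Bmp7 and Gdf6 were below both. The genes Tgfb1, Bmp3, Nog and, at the lower level, Inhbb passed the filter through the Fgfr3CE-E12.5 libraries alone, and Acvr1b through the Dlx5CE-E12.5 libraries alone. A gene that passes through 1 group has to differ, so for these 5 the values per library carry more than the test, and counts of members that include them are descriptions. Total counts were 22035650 to 32563758 in the Dlx5CE-E12.5 libraries and 56355203 to 58166285 in the Fgfr3CE-E12.5 libraries, and 3 counts, taken as the floor of detection, were worth 0.0516 to 0.136 CPM. This floor covers counting error only.

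Pathway genes moved in both directions. Of the 41 members, 12 (29.3%) rose and 9 fell in Fgfr3CE-E12.5 cells, where 16.4% of all genes tested rose and 13.1% fell. By the adjusted p alone, 16 members (39.0%) were higher in Fgfr3CE-E12.5 cells and 14 (34.1%) lower, beside 25.0% and 23.4% of all genes. The libraries of the lineages did not overlap for 34 members (82.9%), beside 68.9% of all genes. The median log2 fold change was -0.11 over the 41 members and 0.01 over all genes tested. Among the 6 members tested at the lower level, 2 rose and 1 fell, beside 16.6% and 12.9% of all genes at that level. The SE (standard error) of a gene's log2 fold change had a median of 0.20 over all genes. In bulk samples, fewer cells that express a gene and less RNA per cell cannot be told apart.

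**Figure D1:**
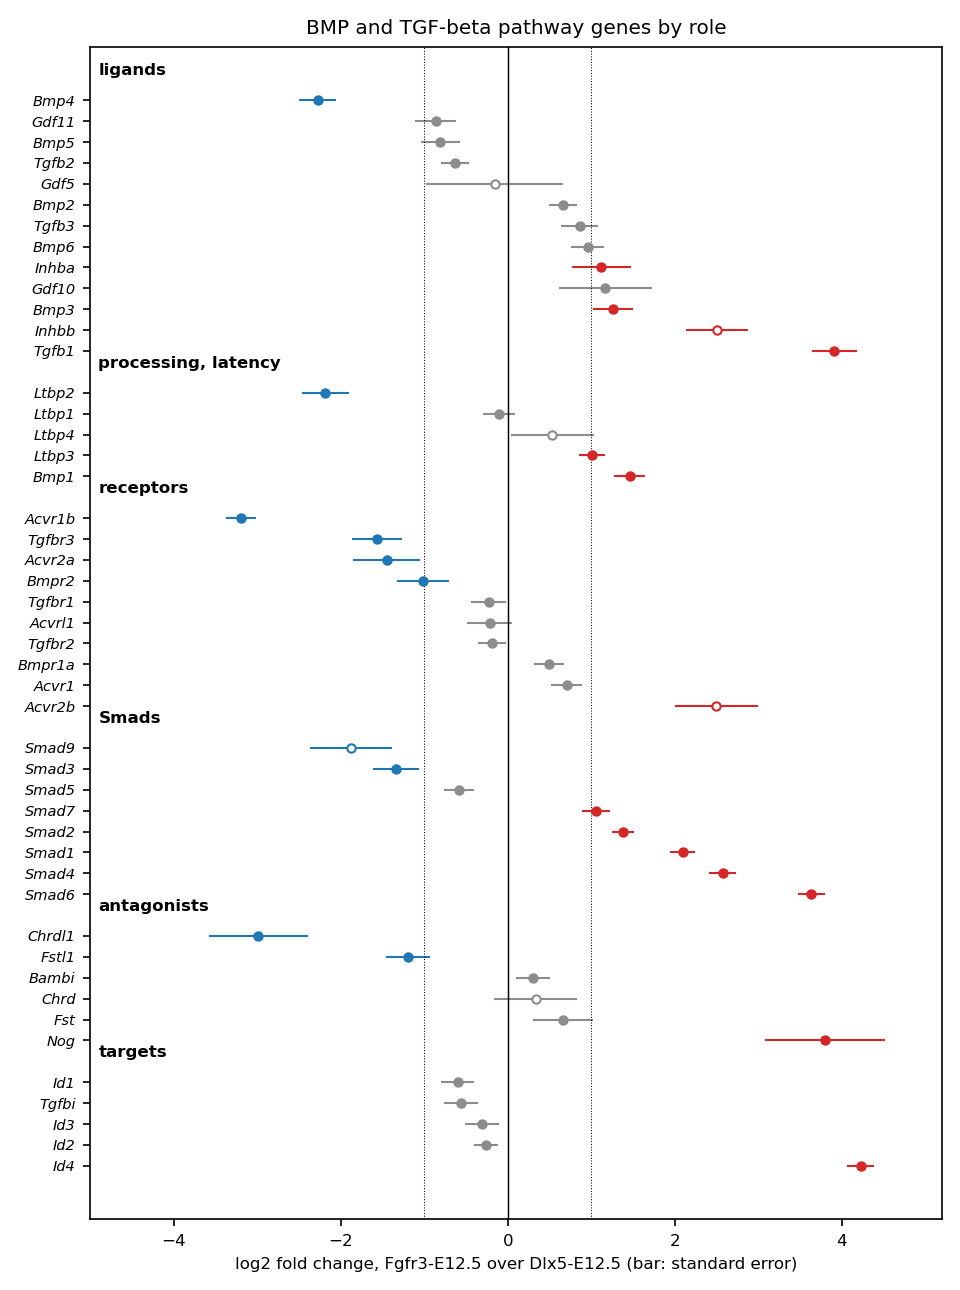
Log2 fold change of the 47 members tested, Fgfr3CE-E12.5 over Dlx5CE-E12.5 cells (horizontal axis; bars are the standard error), ordered within each role. Red points rose and blue points fell, grey points did not pass both thresholds, open points were tested at the lower level of 1 CPM, and dotted lines mark a 2-fold change. The Smads that rose lie on the right and the receptors that fell on the left, with Id4 farthest to the right at 4.23 and Acvr1b farthest to the left at -3.19.

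All 13 ligands tested had counts in every library, and 5 of them were called. Tgfb1, Inhbb, Bmp3 and Inhba rose in Fgfr3CE-E12.5 cells and Bmp4 fell, while 6 more ligands passed the adjusted p but not the fold threshold, 3 in each direction. Of all genes tested, 16.4% to 16.6% rose and 12.9% to 13.1% fell at the 2 filter levels. By the adjusted p alone, 25.0% were higher and 23.4% lower at 10 CPM. Tgfb1, Bmp3 and Inhbb entered their tests through the Fgfr3CE-E12.5 libraries alone, so the counts of ligands are descriptions. The median log2 fold change of the 13 ligands tested was 0.86.

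Tgfb1 encodes TGF-beta 1, which is secreted in a latent complex (ENSMUSG00000002603, chr7:25687002-25705077, plus strand, GRCm38). Its level was 5.48, 3.86 and 4.42 CPM in the Dlx5CE-E12.5 libraries and 52.7 and 85.9 CPM in the Fgfr3CE-E12.5 libraries, from 82 to 168 counts against 3243 and 5445. Every Fgfr3CE-E12.5 library was far above every Dlx5CE-E12.5 library, and replicate 3 was 1.63 times replicate 2. The fold was 15.1 (log2 3.91, SE 0.27, edgeR adjusted p = 8.43e-05). The leukocyte genes Ptprc and 11 others summed to 388 to 482 CPM in the Dlx5CE-E12.5 libraries and to 1262 and 2676 CPM in Fgfr3CE-E12.5 replicates 2 and 3, and their part in the level of Tgfb1 was not tested. Without replicate 3, the log2 fold change of Tgfb1 was 3.52 (edgeR adjusted p = 0.000472) at the lower level of 1 CPM.

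The other isoforms of TGF-beta differed less. Tgfb3 measured 107, 130 and 145 CPM in Dlx5CE-E12.5 cells and 180 and 282 CPM in Fgfr3CE-E12.5 cells. The groups did not overlap, and the log2 fold change of 0.86 (SE 0.22, edgeR adjusted p = 0.017) stayed under the fold threshold. Without Fgfr3CE-E12.5 replicate 2 it was 1.22, and Tgfb3 was then past both thresholds. Tgfb2 went the opposite way, at 32.4, 33.0 and 38.2 CPM in Dlx5CE-E12.5 cells and 23.7 and 20.9 CPM in Fgfr3CE-E12.5 cells (log2 fold change -0.63, SE 0.17, edgeR adjusted p = 0.0185). Per kilobase of exon, Tgfb1 stood at 0.91 CPM in Dlx5CE-E12.5 cells against 37.6 for Tgfb3, and at 13.7 against 68.2 in Fgfr3CE-E12.5 cells, so that Tgfb3 had the higher level of the pair in both lineages.

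Bmp4, a BMP that induces bone and cartilage, was the 1 ligand that fell (ENSMUSG00000021835, chr14:46383520-46390669, minus strand). It measured 403, 295 and 274 CPM in the Dlx5CE-E12.5 libraries and 73.6 and 60.2 CPM in the Fgfr3CE-E12.5 libraries. The groups were well apart, with a 4.84-fold higher level in Dlx5CE-E12.5 cells (log2 fold change -2.28, SE 0.22, edgeR adjusted p = 0.000335). When single libraries were left out, its log2 fold change lay between -2.39 and -2.08. Per kilobase of exon, Bmp4 stood at 144 CPM in Dlx5CE-E12.5 cells, above the 55.7 of Bmp5, 34.5 of Bmp6 and 9.75 of Bmp2. In Fgfr3CE-E12.5 cells the same quantity was 29.8 for Bmp4, 31.8 for Bmp5, 67.0 for Bmp6 and 15.5 for Bmp2, and Bmp6 was then the highest of these 4.

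Bmp2 and Bmp6, BMPs of the bone-inducing kind, were higher in Fgfr3CE-E12.5 cells by less than the fold threshold. Bmp2 measured 36.4, 30.9 and 36.7 CPM in the Dlx5CE-E12.5 libraries and 60.7 and 49.2 CPM in the Fgfr3CE-E12.5 libraries (log2 fold change 0.66, SE 0.16, edgeR adjusted p = 0.0141). Bmp6 measured 104, 139 and 161 CPM against 251 and 271 CPM (log2 fold change 0.96, SE 0.20, edgeR adjusted p = 0.00684). Neither gene had overlapping groups, and Bmp6 passed the fold threshold without Dlx5CE-E12.5 replicate 3 (1.10), without Fgfr3CE-E12.5 replicate 2 (1.09) and with library size alone (1.17).

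Bmp5, another BMP, went the opposite way with 212, 231 and 229 CPM in Dlx5CE-E12.5 cells and 162 and 94.1 CPM in Fgfr3CE-E12.5 cells. Its log2 fold change was -0.81 (SE 0.23, edgeR adjusted p = 0.0257), -0.41 without Fgfr3CE-E12.5 replicate 3 and -1.18 without replicate 2, past both thresholds in the last case. Of its 50-base windows, 46.0% also occur in other genes, among them the antisense gene Gm26903, whose count was at most 73. Gdf11, a ligand related to myostatin, measured 14.1, 15.4 and 15.4 CPM in Dlx5CE-E12.5 cells and 9.77 and 6.75 CPM in Fgfr3CE-E12.5 cells. Its log2 fold change was -0.86 (SE 0.25, edgeR adjusted p = 0.025), and it passed the fold threshold without Fgfr3CE-E12.5 replicate 2 (-1.08) and with the length trend removed (-1.05).

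Bmp3, a BMP known for opposing the bone-inducing members, rose from 5.06, 5.27 and 6.01 CPM to 11.6 and 14.6 CPM (log2 fold change 1.26, SE 0.24, edgeR adjusted p = 0.00505). All of its Dlx5CE-E12.5 libraries were under the level of 10 CPM, so it entered the test through the Fgfr3CE-E12.5 libraries.

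Both activin subunits were called higher in Fgfr3CE-E12.5 cells. Inhbb entered its test through the Fgfr3CE-E12.5 libraries alone and could not enter it with either of them left out. The fits that left out a library therefore do not rank the subunits by firmness. Inhbb, the beta B subunit of activins and inhibins, measured 1.04, 1.04 and 0.994 CPM in Dlx5CE-E12.5 cells and 6.26 and 5.62 CPM in Fgfr3CE-E12.5 cells, with little spread in either group (log2 fold change 2.51, SE 0.37, edgeR adjusted p = 0.00205 at the lower level). Inhba, the beta A subunit, measured 7.01, 15.9 and 14.6 CPM against 31.1 and 23.1 CPM (log2 fold change 1.12, SE 0.35, edgeR adjusted p = 0.0359). The Inhba call was lost in 4 of the fits that left out a library. Its log2 fold change was 0.83 without Dlx5CE-E12.5 replicate 1, and its edgeR adjusted p was 0.0528 without Dlx5CE-E12.5 replicate 3, 0.13 without Fgfr3CE-E12.5 replicate 2 and 0.0542 without Fgfr3CE-E12.5 replicate 3.

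The remaining ligands gave no call. Gdf10, also known as BMP3B, measured 10.2, 50.1 and 39.5 CPM in Dlx5CE-E12.5 cells and 82.5 and 66.5 CPM in Fgfr3CE-E12.5 cells, and the low Dlx5CE-E12.5 replicate 1 widened its error (log2 fold change 1.17, SE 0.55, edgeR adjusted p = 0.124). Gdf5, a joint-forming factor, lay at 0.424 to 3.65 CPM in all libraries (log2 fold change -0.16, SE 0.82, edgeR adjusted p = 0.895). Bmp7 had 0 counts in all Dlx5CE-E12.5 libraries and 33 and 75 counts in the Fgfr3CE-E12.5 libraries, a level at least 7.19-fold higher against the floor of 3 counts per library, and was not tested. Gdf6 had 3, 2 and 9 counts in the Dlx5CE-E12.5 libraries and 0 in both Fgfr3CE-E12.5 libraries.

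**Figure D2:**
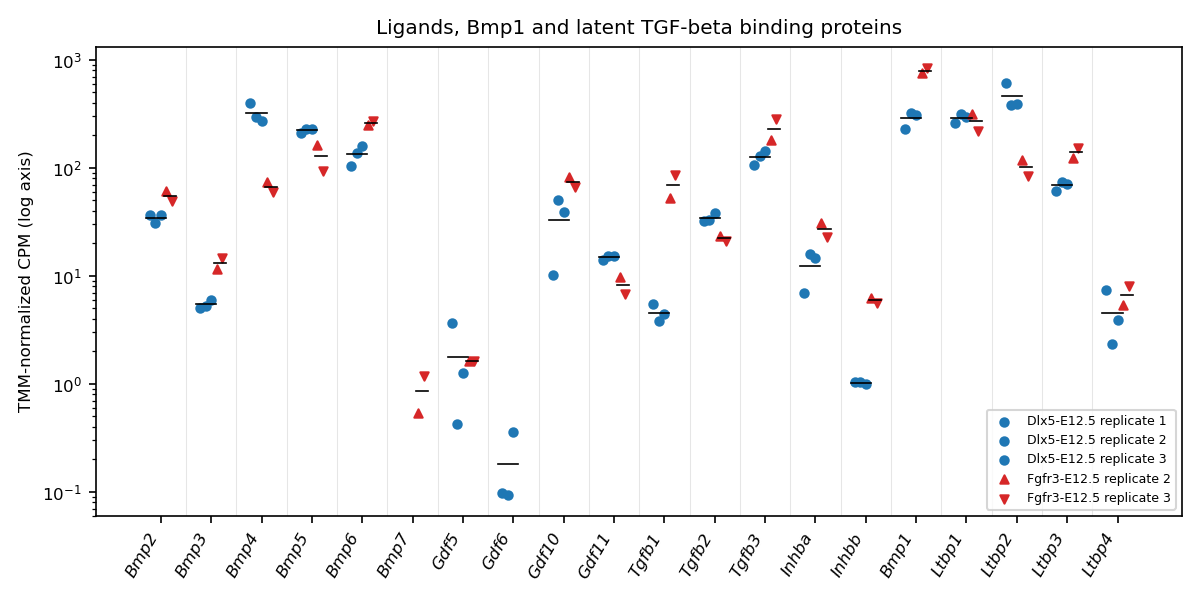
TMM-normalized CPM (log axis) of the ligands, Bmp1 and the latent TGF-beta binding proteins in each library, with the group mean as a black line and libraries at 0 not drawn. Blue circles are the 3 Dlx5CE-E12.5 libraries and red triangles the 2 Fgfr3CE-E12.5 libraries. The levels of Tgfb1 (3.86 to 5.48 against 52.7 and 85.9 CPM) and Bmp4 (274 to 403 against 60.2 and 73.6 CPM) move in opposite directions.

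Of the genes that process ligands or hold them in the matrix, Bmp1 and Ltbp3 rose, Ltbp2 fell, and Ltbp1 and Ltbp4 did not pass the test. Bmp1 encodes a metalloproteinase that cleaves procollagens and the antagonist chordin and is not a BMP ligand (ENSMUSG00000022098, chr14:70474558-70520234, minus strand). It measured 232, 326 and 309 CPM in the Dlx5CE-E12.5 libraries and 755 and 837 CPM in the Fgfr3CE-E12.5 libraries. The groups were wide apart at a 2.76-fold difference (log2 1.46, SE 0.19, edgeR adjusted p = 0.000936), and the log2 fold change stayed between 1.32 and 1.61 with each library left out.

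Ltbp2, a matrix protein of the latent TGF-beta binding protein family that does not itself bind latent TGF-beta, measured 614, 386 and 389 CPM in Dlx5CE-E12.5 cells and 119 and 84.7 CPM in Fgfr3CE-E12.5 cells. Both Fgfr3CE-E12.5 libraries lay below every Dlx5CE-E12.5 library, by 4.55-fold in the means (log2 fold change -2.19, SE 0.28, edgeR adjusted p = 0.00103). The antisense gene D030025P21Rik shares 8.58% of its 50-base windows and had at most 162 counts. Ltbp3, which binds latent TGF-beta, measured 60.8, 74.0 and 71.7 CPM against 124 and 154 CPM (log2 fold change 1.01, SE 0.16, edgeR adjusted p = 0.00205). It lay at the fold threshold: the log2 fold change was 0.93 without Dlx5CE-E12.5 replicate 1, 0.91 without Fgfr3CE-E12.5 replicate 3 and 0.80 with the GC trend removed.

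Ltbp1, the most studied carrier of latent TGF-beta, overlapped between the lineages at 262, 313 and 294 CPM against 318 and 221 CPM (log2 fold change -0.11, SE 0.19, edgeR adjusted p = 0.679). Ltbp4 also overlapped, at 2.35 to 7.41 CPM against 5.38 and 8.06 CPM (log2 fold change 0.53, SE 0.50, edgeR adjusted p = 0.422). The levels of the 3 carriers of latent TGF-beta thus gave 1 rise, near the threshold, and no fall.

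Receptors were, by count, the role with the most falls. Of the 10 receptor genes with a row, Acvr1b, Tgfbr3, Acvr2a and Bmpr2 fell and Acvr2b rose. Of all genes tested, 12.9% to 13.1% fell and 16.4% to 16.6% rose at the 2 filter levels. Acvr1 passed the adjusted p alone and 4 did not pass, with a median log2 fold change of -0.22. The calls of Acvr2a and Bmpr2 were lost when certain single libraries were left out, and Acvr1b passed its filter through 1 group, so this count is a description. Acvr1b encodes ALK4, the type I receptor of activins (ENSMUSG00000000532, chr15:101174067-101213684, plus strand). It measured 59.9, 52.7 and 54.8 CPM in the Dlx5CE-E12.5 libraries and 6.48 and 5.71 CPM in the Fgfr3CE-E12.5 libraries. It entered the test through the Dlx5CE-E12.5 libraries alone. The spread within each group was small beside the 9.15-fold difference (log2 fold change -3.19, SE 0.17, edgeR adjusted p = 4.24e-05), and the log2 fold change lay between -3.24 and -3.04 with each library left out.

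The activin type II receptors went apart. Acvr2a, encoding 1 type II receptor of activins and BMPs, measured 122, 97.8 and 109 CPM in Dlx5CE-E12.5 cells and 58.9 and 21.2 CPM in Fgfr3CE-E12.5 cells (log2 fold change -1.45, SE 0.40, edgeR adjusted p = 0.0221). Its Fgfr3CE-E12.5 libraries were unequal, and the log2 fold change was -0.83 without replicate 3 and -2.29 without replicate 2, while the edgeR adjusted p was 0.0558 without Dlx5CE-E12.5 replicate 1. Acvr2b, encoding the other, rose from 0.685, 2.03 and 2.07 CPM to 8.32 and 9.83 CPM (log2 fold change 2.50, SE 0.50, edgeR adjusted p = 0.00674 at the lower level). The groups of neither gene overlapped. Per kilobase of exon, the level of Acvr2a went from 19.2 to 7.04 CPM and that of Acvr2b from 0.406 to 2.31 CPM, so Acvr2a had the higher level of the pair in both lineages.

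Tgfbr3 encodes betaglycan, a co-receptor that presents TGF-beta 2 and binds inhibin (ENSMUSG00000029287, chr5:107106570-107289629, minus strand). It measured 955, 613 and 601 CPM in the Dlx5CE-E12.5 libraries and 299 and 188 CPM in the Fgfr3CE-E12.5 libraries. Both Fgfr3CE-E12.5 libraries were below the others, 2.97-fold in the means (log2 fold change -1.57, SE 0.30, edgeR adjusted p = 0.00506). Its level per kilobase of exon was 110 CPM in Dlx5CE-E12.5 cells and 37.2 CPM in Fgfr3CE-E12.5 cells.

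Bmpr2, the type II receptor of BMPs, measured 76.6, 86.5 and 70.9 CPM in Dlx5CE-E12.5 cells and 52.5 and 24.8 CPM in Fgfr3CE-E12.5 cells (log2 fold change -1.01, SE 0.31, edgeR adjusted p = 0.031). The groups did not overlap, but the call lay at the threshold. Without Fgfr3CE-E12.5 replicate 3 the log2 fold change was -0.51 (edgeR adjusted p = 0.0619), and without replicate 2 it was -1.58 (edgeR adjusted p = 0.00176), past both thresholds. The edgeR adjusted p was 0.0631 without Dlx5CE-E12.5 replicate 1 and 0.0809 without Dlx5CE-E12.5 replicate 2, and the log2 fold change was -0.31 with the length trend removed.

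The type I receptors other than Acvr1b had smaller differences. Acvr1, encoding ALK2, a receptor of BMPs, measured 36.9, 48.8 and 42.0 CPM in Dlx5CE-E12.5 cells and 78.9 and 60.1 CPM in Fgfr3CE-E12.5 cells (log2 fold change 0.71, SE 0.18, edgeR adjusted p = 0.0177). Bmpr1a, encoding ALK3, measured 44.9, 38.3 and 39.7 CPM against 66.3 and 49.1 CPM (log2 fold change 0.49, SE 0.18, edgeR adjusted p = 0.0532). Neither had overlapping groups, and neither passed the fold threshold. Acvrl1 (ALK1), Tgfbr1 (ALK5, the TGF-beta type I receptor) and the type II receptor Tgfbr2 overlapped between the lineages, with log2 fold changes of -0.22, -0.23 and -0.19 and edgeR adjusted p of 0.542, 0.405 and 0.375. Tgfbr2 lay at 110 to 124 CPM in Dlx5CE-E12.5 cells and at 115 and 85.4 CPM in Fgfr3CE-E12.5 cells.

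All 8 Smads passed the adjusted p, which at the level of 10 CPM 25.0% of all genes passed as higher and 23.4% as lower. Smad6, Smad4, Smad1, Smad2 and Smad7 rose, Smad3 and Smad9 fell, and Smad5 was lower by less than the fold threshold. The receptor-activated Smads of each branch included 1 that rose and 1 that fell. The median log2 fold change over the 8 Smads was 1.22. None of the 8 had overlapping groups, as was so for 68.9% of all genes tested at 10 CPM.

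Smad6 encodes the inhibitory Smad that acts mainly on BMP receptors (ENSMUSG00000036867, chr9:63953076-64022059, minus strand), and its promoter is printed above. It measured 17.4, 21.9 and 18.5 CPM in the Dlx5CE-E12.5 libraries and 261 and 218 CPM in the Fgfr3CE-E12.5 libraries. The groups were far apart at a 12.4-fold difference (log2 3.64, SE 0.16, edgeR adjusted p = 4.1e-05), and the log2 fold change lay between 3.57 and 3.82 with each library left out. Smad7, the inhibitory Smad of both branches, measured 28.8, 27.1 and 28.4 CPM against 66.9 and 49.7 CPM (log2 fold change 1.05, SE 0.17, edgeR adjusted p = 0.00245). It fell under the fold threshold without Fgfr3CE-E12.5 replicate 2 (0.90) and with the GC (0.91) or length (0.86) trend removed. The levels of Smad6 and Smad7 per kilobase of exon were 6.01 and 6.21 CPM in Dlx5CE-E12.5 cells and 74.7 and 12.9 CPM in Fgfr3CE-E12.5 cells.

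Smad4, the partner of the receptor-activated Smads (ENSMUSG00000024515), measured 27.7, 25.5 and 30.7 CPM in the Dlx5CE-E12.5 libraries and 187 and 147 CPM in the Fgfr3CE-E12.5 libraries. That was a 5.97-fold difference (log2 2.58, SE 0.16, edgeR adjusted p = 6.4e-05). Smad1, a receptor-activated Smad of the BMP branch, measured 19.8, 21.4 and 21.4 CPM against 96.8 and 81.2 CPM (log2 fold change 2.09, SE 0.15, edgeR adjusted p = 8.73e-05). In both genes the Dlx5CE-E12.5 libraries lay close together and both Fgfr3CE-E12.5 libraries far above them. When single libraries were left out, the log2 fold change was 2.47 to 2.80 for Smad4 and 2.04 to 2.28 for Smad1.

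Of the other BMP-branch Smads, Smad9 was called lower and Smad5 was not. Smad9 fell from 2.71, 4.43 and 3.26 CPM to 1.14 and 0.773 CPM (log2 fold change -1.87, SE 0.49, edgeR adjusted p = 0.0192 at the lower level). Its call was lost without Dlx5CE-E12.5 replicate 2 (edgeR adjusted p = 0.0748), Dlx5CE-E12.5 replicate 3 (0.0501) or Fgfr3CE-E12.5 replicate 3 (0.0903). Smad5 measured 53.5, 53.5 and 55.0 CPM in Dlx5CE-E12.5 cells and 42.4 and 29.7 CPM in Fgfr3CE-E12.5 cells (log2 fold change -0.58, SE 0.18, edgeR adjusted p = 0.0355). Its edgeR adjusted p was 0.0693 to 0.0939 without any 1 of the Dlx5CE-E12.5 libraries and 0.158 without Fgfr3CE-E12.5 replicate 3. Per kilobase of exon, Smad5 had the highest level of the 3 BMP-branch Smads in Dlx5CE-E12.5 cells (7.28 CPM, against 3.33 for Smad1) and Smad1 in Fgfr3CE-E12.5 cells (14.2 CPM, against 4.86 for Smad5).

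In the TGF-beta branch, Smad2 rose from 32.5, 31.0 and 32.8 CPM to 84.6 and 82.4 CPM (log2 fold change 1.38, SE 0.13, edgeR adjusted p = 0.000262). Smad3 fell from 35.1, 32.4 and 42.8 CPM to 18.4 and 10.7 CPM (log2 fold change -1.34, SE 0.27, edgeR adjusted p = 0.0068). Per kilobase of exon, Smad3 was the higher of the pair in Dlx5CE-E12.5 cells, at 6.63 against 3.65 CPM, and the lower in Fgfr3CE-E12.5 cells, at 2.62 against 9.51 CPM. Without Fgfr3CE-E12.5 replicate 3 the log2 fold change of Smad3 was -0.94 (edgeR adjusted p = 0.0255), which is under the fold threshold.

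**Figure D3:**
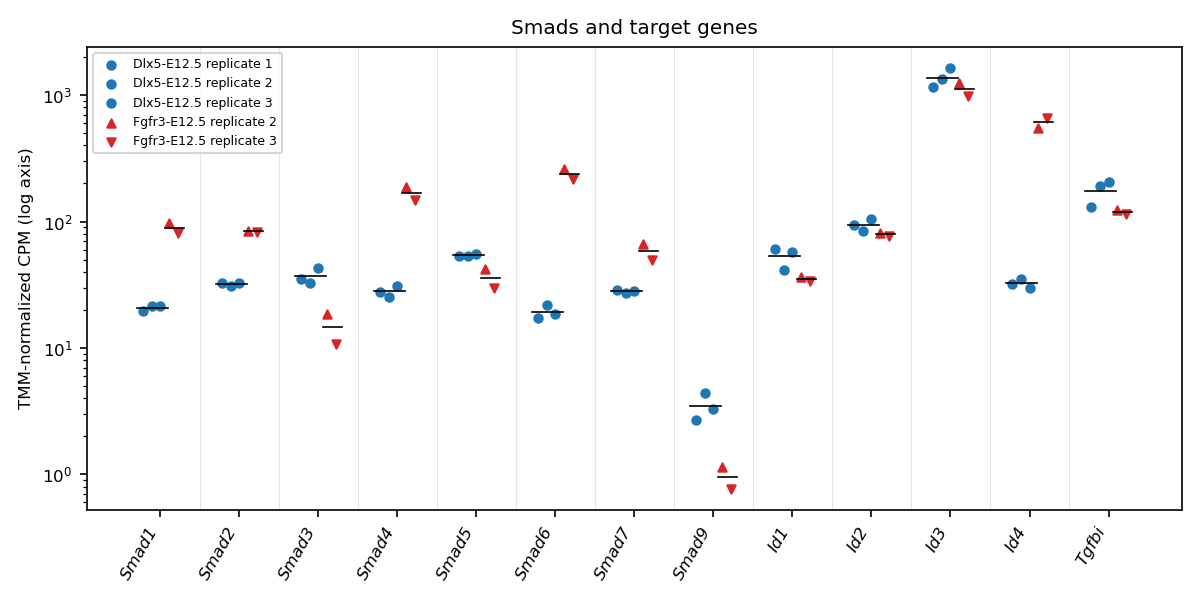
TMM-normalized CPM (log axis) of the 8 Smads and 5 target genes in each library, with the group mean as a black line. Blue circles are the 3 Dlx5CE-E12.5 libraries and red triangles the 2 Fgfr3CE-E12.5 libraries. Smad6 (17.4 to 21.9 against 218 and 261 CPM) and Id4 (30.0 to 35.4 against 551 and 662 CPM) stand farthest apart, and the other 4 targets are lower in the mean of the Fgfr3CE-E12.5 libraries.

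Among the antagonists, Nog rose, Chrdl1 and Fstl1 fell, and Chrd, Fst and Bambi did not pass the test. Nog encodes noggin, which binds BMPs and keeps them from their receptors (ENSMUSG00000048616, chr11:89300638-89302332, minus strand). It had 8, 7 and 47 counts in the Dlx5CE-E12.5 libraries and 724 and 705 counts in the Fgfr3CE-E12.5 libraries, or 0.261, 0.33 and 1.87 CPM against 11.8 and 11.1 CPM. The Fgfr3CE-E12.5 libraries were alike and far above the rest, and Nog entered the test through them alone, at a 14.0-fold difference (log2 3.80, SE 0.72, edgeR adjusted p = 0.00491). Dlx5CE-E12.5 replicate 3 set the width of this error, and without it the log2 fold change was 5.28 (edgeR adjusted p = 0.00025).

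Chrdl1 encodes chordin-like 1, a secreted antagonist of BMP4 (ENSMUSG00000031283, chrX:143285674-143394262, minus strand). It measured 1874, 1485 and 1400 CPM in the Dlx5CE-E12.5 libraries and 324 and 77.2 CPM in the Fgfr3CE-E12.5 libraries. The Fgfr3CE-E12.5 libraries were both low but unequal, at a 7.91-fold difference in the means (log2 fold change -2.98, SE 0.59, edgeR adjusted p = 0.00587). Without Fgfr3CE-E12.5 replicate 2 the log2 fold change was -4.29, and without replicate 3 it was -2.23. Chrdl1 and its named ligand Bmp4 were thus both lower in Fgfr3CE-E12.5 cells, and Nog was higher.

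Fstl1, encoding a secreted glycoprotein of the follistatin family, had the highest level of all members per kilobase of exon in Dlx5CE-E12.5 cells, 1070 CPM, beside 469 CPM in Fgfr3CE-E12.5 cells. It measured 5813, 5129 and 4838 CPM in Dlx5CE-E12.5 cells and 2894 and 1714 CPM in Fgfr3CE-E12.5 cells (log2 fold change -1.19, SE 0.26, edgeR adjusted p = 0.00922). The log2 fold change was -0.80 without Fgfr3CE-E12.5 replicate 3 and -0.98 with library size alone, both under the fold threshold. Fst, encoding follistatin, an activin trap, measured 71.5, 69.5 and 154 CPM in Dlx5CE-E12.5 cells and 176 and 134 CPM in Fgfr3CE-E12.5 cells (log2 fold change 0.66, SE 0.36, edgeR adjusted p = 0.173). Dlx5CE-E12.5 replicate 3 lay among the Fgfr3CE-E12.5 libraries, and without it the log2 fold change was 1.13 (edgeR adjusted p = 0.00539). Chrd, encoding chordin, lay at 2.61 to 4.10 CPM against 2.39 and 6.34 CPM (log2 fold change 0.34, edgeR adjusted p = 0.616). Bambi, encoding a decoy receptor without a kinase, lay at 41.8 to 66.9 CPM against 67.1 and 66.6 CPM (log2 fold change 0.30, edgeR adjusted p = 0.261).

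**Figure D4:**
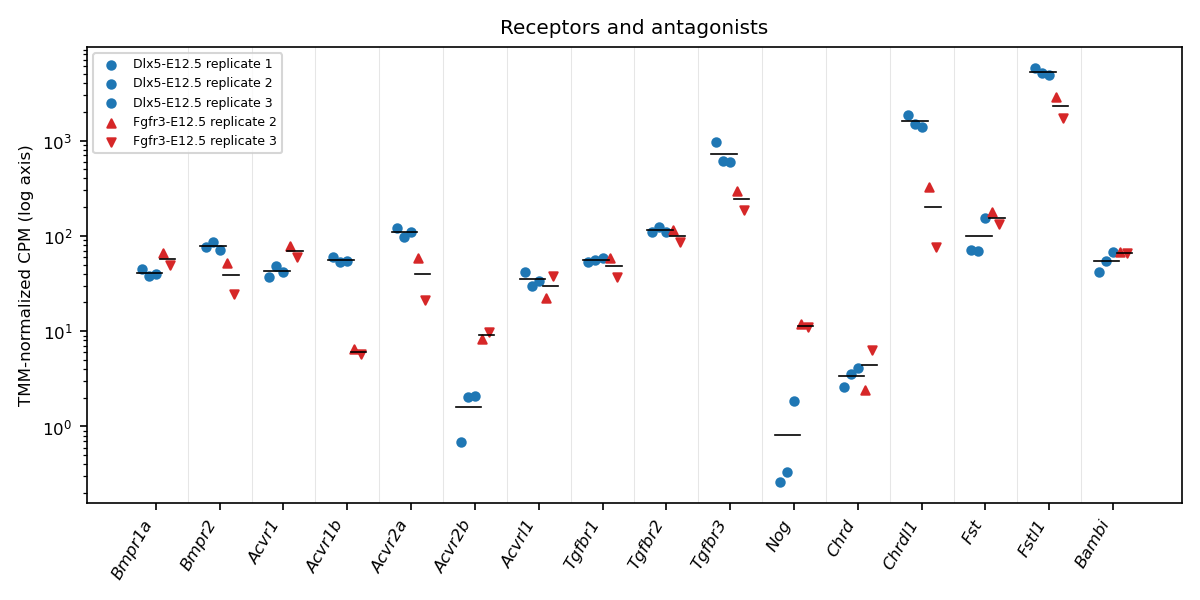
TMM-normalized CPM (log axis) of the receptors and antagonists in each library, with the group mean as a black line. Blue circles are the 3 Dlx5CE-E12.5 libraries and red triangles the 2 Fgfr3CE-E12.5 libraries. Acvr1b falls from 52.7 to 59.9 CPM down to 5.71 and 6.48 CPM, and Nog climbs from 0.261 to 1.87 CPM up to 11.1 and 11.8 CPM.

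The targets did not move as one. The Id genes encode inhibitors of bHLH transcription factors, and Id1 to Id3 are textbook targets of BMP signaling. Id4 rose and none of the other 4 targets passed both thresholds. Id4 (ENSMUSG00000021379, chr13:48261228-48266026, plus strand) measured 31.8, 35.4 and 30.0 CPM in the Dlx5CE-E12.5 libraries and 551 and 662 CPM in the Fgfr3CE-E12.5 libraries. It had the largest fold of all 47 members tested, 18.7 (log2 4.23, SE 0.16, edgeR adjusted p = 3.59e-05), and the log2 fold change lay between 4.15 and 4.43 with each library left out. Exons of Id4 overlap those of noncoding genes, among them Gm49291 with at most 1489 counts, so reads at the overlap could not be placed with certainty. Overlaps with expressed genes of the opposite strand were found, among others, for Bmp6 (224 bases with Txndc5) and Acvr2a (446 bases with Orc4).

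Id1 measured 61.0, 41.7 and 57.3 CPM in Dlx5CE-E12.5 cells and 36.6 and 33.9 CPM in Fgfr3CE-E12.5 cells, with groups apart by less than the fold threshold (log2 fold change -0.60, SE 0.20, edgeR adjusted p = 0.0411). Id2 measured 94.4, 84.1 and 105 CPM against 81.7 and 76.2 CPM (log2 fold change -0.26, SE 0.15, edgeR adjusted p = 0.18). Id3 overlapped, at 1157, 1335 and 1636 CPM against 1236 and 988 CPM (log2 fold change -0.31, SE 0.21, edgeR adjusted p = 0.261). Id3 was the highest of the Id genes per kilobase of exon in both lineages, at 768 CPM in Dlx5CE-E12.5 and 621 CPM in Fgfr3CE-E12.5 cells, where Id4 went from 8.42 to 158 CPM. Tgfbi, a matrix gene named for its induction by TGF-beta, measured 131, 190 and 204 CPM against 124 and 114 CPM. It was lower in both Fgfr3CE-E12.5 libraries, and the difference did not pass the test (log2 fold change -0.56, SE 0.21, edgeR adjusted p = 0.0625).

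Other genes of the pathways, from a list of 69 with a row, are given beside the members. Of the 53 tested, 10 rose and 13 fell, where 16.4% to 16.6% of all genes rose and 12.9% to 13.1% fell at the 2 filter levels, and their median log2 fold change was 0.07. Some of the genes called entered the test through 1 group alone, so these counts are descriptions. Among 18 regulators of Smads and pathway kinases, Pmepa1, whose product holds back TGF-beta signaling, rose from 24.6, 24.3 and 29.6 CPM to 205 and 213 CPM (log2 fold change 3.00, SE 0.14, edgeR adjusted p = 4.24e-05). Map3k7, encoding the kinase TAK1, also rose (log2 fold change 1.63), and Tgif2 and Zfyve9 fell (-1.44 and -1.41). Zfyve9 entered the test through the Dlx5CE-E12.5 libraries alone.

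Targets outside the members were split 3 against 3 among 10. Ccn2, encoding connective tissue growth factor, rose from 238, 383 and 525 CPM to 2064 and 1732 CPM (log2 fold change 2.31, SE 0.32, edgeR adjusted p = 0.00127), as did Msx2 (1.97) and Hey1 (1.36). Msx2 was tested at the lower level of 1 CPM and passed it through the Fgfr3CE-E12.5 libraries alone. Among those that fell were Junb, encoding an AP-1 transcription factor (log2 fold change -1.51), and Tsc22d1 (-1.37).

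Of 20 further antagonists and matrix regulators, 3 rose and 5 fell. The BMP antagonist Grem1 fell from 170.5, 161 and 183 CPM to 73.5 and 46.1 CPM (log2 fold change -1.52, SE 0.22, edgeR adjusted p = 0.00156). Like Chrdl1, it is a BMP antagonist that fell while Nog rose. Bmper (-1.28), Lrrc32 (-1.24) and Fbn1 (-1.19) fell too, and Tll2 (1.88), Nrros (1.72) and Nbl1 (1.65) rose. Of 6 receptors and co-receptors, Rgmb rose (1.72), and Rgma (-2.26) and endoglin, Eng (-1.37), fell. Lrrc32 and Rgma entered the test through the Dlx5CE-E12.5 libraries alone. Of 15 further ligands, Bmp8a rose (2.84, edgeR adjusted p = 0.0408) and Gdf15 fell (-1.71).

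The Fgfr3CE-E12.5 libraries differed between themselves in the pathway genes. Of the 41 members tested, 33 (80.5%) were lower in replicate 3 than in replicate 2, beside 51.5% of all genes tested. Without replicate 3, 7 members rose and 5 fell, and without replicate 2, 9 rose and 11 fell. In both cases, 3 that rose with all libraries (Tgfb1, Bmp3 and Nog) failed the level of 10 CPM. At the lower level of 1 CPM, each of these 3 passed both thresholds when replicate 2 or replicate 3 of the Fgfr3CE-E12.5 libraries was left out. The replicate that was lower in most members also had the lower sum of CAR and chondrocyte markers and the higher sum of leukocyte markers, given next, and the part of these in the difference was not tested.

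Summed marker lists of several cell types, among them the sorted CAR cells, differed between the lineages, and those of erythroid and endothelial cells overlapped. The 8 CAR cell markers (Cxcl12, Lepr, Kitl and 5 others) summed to 28899 to 30071 CPM in the Dlx5CE-E12.5 libraries and to 11808 and 7996 CPM in Fgfr3CE-E12.5 replicates 2 and 3, with 5 markers lower and Foxc1 higher. Cxcl12 itself was at 21254 to 22408 CPM and at 8067 and 5801 CPM, so the defining marker of the labelled cell type was detected in all libraries. The 9 chondrocyte markers (Col2a1, Acan, Matn3 and 6 others) summed to 9.51 to 15.8 CPM and to 3263 and 444 CPM, and all 9 rose. Each of the 9 was under its filter level in every Dlx5CE-E12.5 library and entered the test through the Fgfr3CE-E12.5 libraries alone. Their calls are therefore descriptions, and the sums carry more than the test. Of the 12 pan-leukocyte markers, 11 rose, with the sums given above, and all 11 neutrophil markers (S100a8, S100a9, Ngp and 8 others) rose, from 2530 to 3155 CPM to 7174 and 17673 CPM. Of 8 macrophage markers (Csf1r, Adgre1, Cd68 and 5 others), 5 rose, from a sum of 85.2 to 122 CPM to 185 and 263 CPM. The leukocyte marker Vav1, the neutrophil marker Ly6g and the macrophage marker Cd68 also entered the test through the Fgfr3CE-E12.5 libraries alone.

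Osteoblast markers (Sp7, Alpl, Ibsp and 5 others) summed to 3736 to 5270 CPM in Dlx5CE-E12.5 and to 7230 and 9710 CPM in Fgfr3CE-E12.5 libraries, and 5 of 8 rose. Megakaryocyte markers (Pf4, Itga2b, Gp9 and 3 others) rose in 3 of 6, from 6.88 to 7.76 CPM to 65.4 and 16.3 CPM. Osteoclast markers (Acp5, Calcr, Ocstamp and 4 others) rose in 4 of 7, with sums of 189 to 195 CPM and of 248 CPM in both Fgfr3CE-E12.5 libraries. Most of these sums was Ctsk, which was not called, at 175 to 179 CPM against 173 and 169 CPM. Of those that rose, Ocstamp, Dcstamp and Atp6v0d2 entered the test through the Fgfr3CE-E12.5 libraries alone. The sums of the 7 erythroid markers (Hba-a1, Hba-a2, Hbb-bs and 4 others; 17592 to 35935 against 13551 and 20137 CPM) and of the 8 endothelial markers (Pecam1, Cdh5, Kdr and 5 others; 27.2 to 49.0 against 41.4 and 54.1 CPM) overlapped between the lineages. Of these erythroid and endothelial markers, Hba-a1 (log2 fold change -1.18), Hbb-bt (-1.27) and, at the lower level of 1 CPM, Cdh5 (-2.01) fell, and none rose. The part of the listed cell types in the levels of the pathway genes was not tested.

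**Figure D5:**
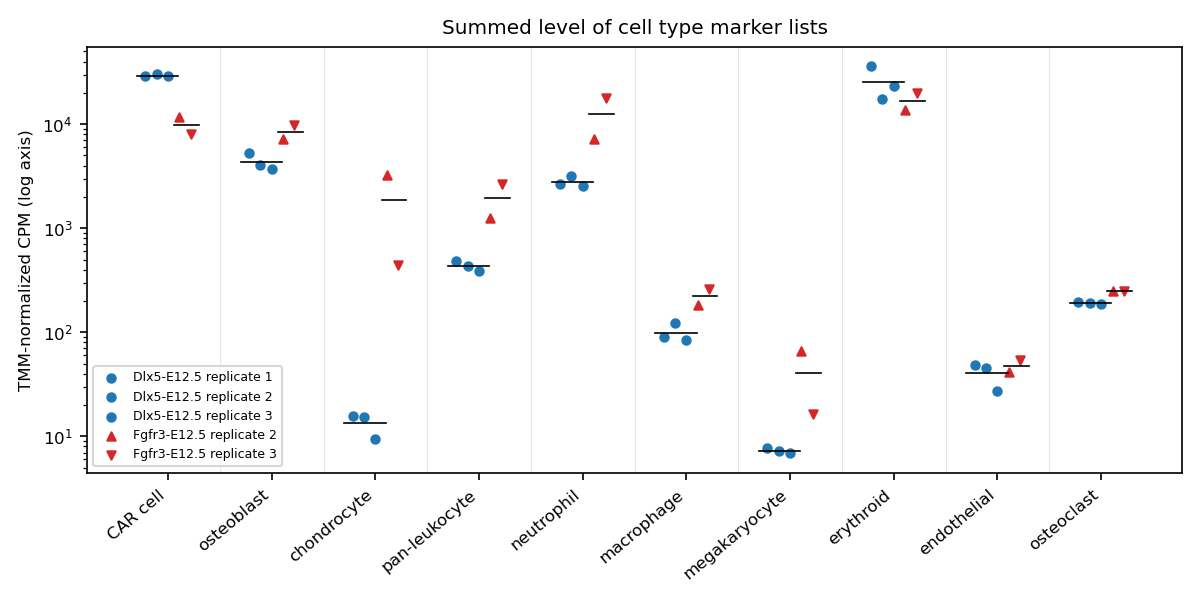
Summed TMM-normalized CPM (log axis) of the marker list of each cell type in each library, with the group mean as a black line. Blue circles are the 3 Dlx5CE-E12.5 libraries and red triangles the 2 Fgfr3CE-E12.5 libraries. CAR cell markers are lower in both Fgfr3CE-E12.5 libraries (11808 and 7996 CPM), while chondrocyte, leukocyte and neutrophil markers are higher in both.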

How the data were processed

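Per the submitters' processing notes and the study's methods, reads were aligned to mm10 with TopHat2 2.0.13 and Bowtie2 2.2.1. The strand setting of the counting was not given in the sources used here. The authors deposited raw counts per gene, which were used, beside depth-normalized and rlog values, which were not. The methods name different sequencers and read lengths for the lineages, with paired-end reads for the Dlx5CE-E12.5 and single-end reads for the Fgfr3CE-E12.5 libraries. Sequencing and lineage therefore cannot be told apart.

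Libraries were grouped by their labels. Symbols and coordinates came from GENCODE M21 (GRCm38), in which 29996 gene IDs matched and 45 did not, and promoters from RefSeq. Counts of protein-coding genes and reporters entered edgeR 4.0.16 under R 4.3.3 (TMM, quasi-likelihood test, lineage as the only term, Benjamini-Hochberg adjustment), and the fit was tested on simulated data. The p-values measure the spread between these libraries. The SE is the log2 fold change over the root of F. Alternatives were other normalizations, tests (among them DESeq2 1.42.0), filters and thresholds, a replicate block, leaving out each library, and removal of GC or length trends. Leaving out an Fgfr3CE-E12.5 library together with the lower filter was added after seeing the data. Reads carry no molecular identifiers. Figures were drawn with matplotlib 3.10.9.

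The members and lists were chosen with earlier results of these data known, and the promoters after their values were seen. Every called member and every member whose call changed is named, and the called genes of the other pathway lists, some of which are not reported here.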

Additional observations from a re-analysis of the deposited data

How the results depend on the processing

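Of 791 values of single members under the alternatives, 38 lost a call and 19 gained one. The other 734 kept their side of the thresholds, and 12 of these, from 7 members called in neither fit, changed sign. None of the called members did. With no fold threshold, 14 members were lower in Fgfr3CE-E12.5 cells, and by edgeR's test against a 2-fold change 8 rose and 4 fell, with 0 of the low-count members falling. With each library left out, 7 to 13 members rose and 5 to 11 fell, and of the low-count members 1 to 2 rose and 0 to 1 fell. These counts moved most without Fgfr3CE-E12.5 replicate 3. The filter still asked for 2 libraries, so with 1 Fgfr3CE-E12.5 library left, genes at the filter level in that group alone could not enter. The genes tested went from 10093 to 9358 without replicate 3 and to 9357 without replicate 2. The counts of genes that rose in these fits are therefore set in part by the filter.

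Library size alone in place of TMM shifted the median log2 fold change of all genes from 0.01 to 0.22 and gave 14 members that rose and 7 that fell. Relative to that shift, 66.3% of called genes were higher in Fgfr3CE-E12.5 cells, beside 55.6% with TMM. Over all features at the lower level of 1 CPM this share was 43.1%.

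The lineages share the replicate numbers 2 and 3, but the labels tie these to no shared litter or day. The correlation of deviations of same-numbered libraries was 0.13 and -0.05. The deviations of 2 Fgfr3CE-E12.5 libraries from their mean mirror each other, so the differently numbered pairs gave -0.13 and 0.05 by construction. These values therefore cannot settle whether the libraries were paired. With the replicate number as a block, 10 members rose and 9 fell, and of the low-count members 3 rose and 1 fell: Inhba (log2 fold change 0.82) and Ltbp3 (0.92) lost their calls and Ltbp4 (1.10) gained one. The tests of low-count genes are limited by few counts, and all others by having 2 Fgfr3CE-E12.5 libraries. Each fit that left out 1 of these assumed that the lone library varies like the Dlx5CE-E12.5 libraries. The causes of these changes were not tested.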
